A study of Mus musculus with 2 samples.

Results

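The FGF21 signalling set comprised the fasting hormone gene Fgf21, the stress hormone gene Gdf15, the co-receptor gene Klb and the FGF receptor genes Fgfr1, Fgfr2, Fgfr3 and Fgfr4. These 7 genes, taken by name, were all present among the 20284 named genes of the arrays, with 12 of 55681 probes and 21 of 59305 gene spots. All 7 were above background in every channel with their brightest probe. The series measured pooled liver RNA from mice in which CREBH, the product of Creb3l3, had been knocked out (KO) on a C57B6J background, and from wild-type (WT) C57B6J mice. The 4 pools were KO livers after 24 h without food, WT livers after 24 h without food, KO livers from mice with food freely available and WT livers from mice with food freely available. Age, sex, the number of mice per pool and the construction of the KO allele are not given in the sources used here. Each pool was measured once, on 2 Agilent arrays read in both dyes, with KO in Cy5 and WT in Cy3 on both.

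FGF21 is a hormone that hepatocytes secrete in fasting and under nutrient stress. It acts on cells that carry an FGF receptor together with β-Klotho, the membrane protein encoded by Klb, and adipose tissue and brain are known targets. FGF15, the mouse counterpart of human FGF19, comes from the ileum and signals through β-Klotho and FGFR4 on hepatocytes, where it represses bile acid synthesis. GDF15 is a distant member of the TGFβ family that is released by stressed cells and acts through GFRAL in the hindbrain, so it shares the role of a stress hormone with FGF21 but not its receptors. CREBH is a transcription factor held in the endoplasmic reticulum membrane of hepatocytes, and Fgf21 is one of its known target genes in mouse liver.

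With 1 pool per group no test was possible, and a difference of at least 2-fold (1 on the log2 scale) served as the rule of size. Technical error is given in 2 forms. The first is the standard deviation (SD) of a log2 ratio among repeated spots of similar brightness. Brightness was matched within 0.5 on the mean log2 level over the 4 channels. For Fgf21 that mean lies above its level in fasted KO, fed KO and fed WT liver. The SD was taken after processing that draws dim ratios towards 0, so it can be smaller than the spread without that processing. The second form is the error that the scanner software assigns to 1 spot. The scanner error belongs to the scanner's own processed signals, which can differ from the values reported here for dim spots. Neither covers differences between mice, pools or labellings. There was no dye swap, so genotype and dye cannot be told apart within an array. A dye effect that is the same on both arrays cancels in fasted over fed within a genotype and in the difference of the KO over WT ratios between arrays. In pooled tissue fewer cells of a type and less RNA per cell cannot be told apart. The targeted gene Creb3l3 had a log2 level of 12.95 in fasted KO and 15.03 in fasted WT liver, and 13.12 in fed KO and 14.00 in fed WT liver. Whether its probe lies within the part of the gene altered in the KO is not given. Between 39.9% and 45.9% of gene spots were well above background per channel. The 8 hepatocyte markers, Alb and Ttr among them, were above background in all 4 channels, with a summed log2 signal between 19.31 and 19.43. Endothelial (8 of 8) and Kupffer cell markers (8 of 8) were above background in all channels, cholangiocyte markers in 3 or 4 of 7, and skeletal muscle markers in none of 5 except 1 in fasted WT liver. The summed log2 signal of the Kupffer cell markers was 14.07 in fasted KO and 14.00 in fasted WT liver, and 13.58 in fed KO and 14.03 in fed WT liver.

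Fgf21 was the member with the largest difference between genotypes, and the difference stood in the fasted livers. Its log2 level was 6.65 in fasted KO and 9.02 in fasted WT liver, and 6.43 in fed KO and 6.96 in fed WT liver. The fasted WT pool was far above the other 3, which lay within a narrow band of each other. After background subtraction the single Fgf21 spot read 95 units in fasted KO and 386 units in fasted WT liver, and 35 units in fed KO and 33 units in fed WT liver, on a scanner scale that differs between the dyes. Of the measured probes, 25.3% were as dim as Fgf21 or dimmer in fasted KO and 68.8% in fasted WT liver, against 9.68% in fed KO and 25.2% in fed WT liver. The values of the fed pools and of the fasted KO pool rested on a dim spot, which was well above background in each.

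In fasted livers Fgf21 was 5.14-fold lower in KO than in WT (log2 ratio -2.36, scanner error 0.36, SD of repeated spots 0.09). It stood at rank 8 from the lowest of 12262 genes measured on that array. Gdf15 was 2.42-fold higher in the same comparison, and these 2 of the 7 members were at least 2-fold apart, where 0.791% of all measured genes were. One member was lower and 1 was higher, beside 0.432% and 0.359% of all genes. In the authors' deposited table the log2 ratio of the same Fgf21 spot was -3.12. Under all 9 alternative settings Fgf21 remained at least 2-fold lower, between -3.12 and -1.85. Settings that change the filter on dim probes or average over probes could not move it. Fgf21 has 1 probe with 1 spot, well above background in every channel. The authors' table repeats the ratio of the scanner's processed signals.

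In fed livers the Fgf21 log2 ratio of KO over WT was -0.52 (scanner error 0.30, SD of repeated spots 0.11), a 1.44-fold difference. None of the 7 members was 2-fold apart in the fed state, where 0.554% of all measured genes were (0.158% higher and 0.396% lower in KO). The spot was dim in both fed pools and its value moved with the processing: the authors' deposited table had -1.32, a normexp offset of 10 in place of 50 gave -0.92, centring on the median of measured genes gave -0.98, and centring on the median of all gene spots gave -0.28. All 9 alternatives gave a lower Fgf21 in fed KO than in fed WT liver, though those on filtering and averaging could not move it. The scanner's own processed signals, whose ratio the authors' table repeats, put it past 2-fold.

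The fasting difference of Fgf21 stood in WT livers by the rule of size. In KO livers Fgf21 was 1.17-fold higher fasted than fed (log2 0.22, scanner error 0.28, SD of repeated spots 0.10). In WT livers it was 4.17-fold higher fasted than fed (log2 2.06, scanner error 0.23, SD of repeated spots 0.10), at rank 28 from the highest of 11441 genes. Of the 7 members, 1 was at least 2-fold apart between fasted and fed KO livers, Fgfr3, which was lower (4.68% of all genes apart, 2.1% lower). Between fasted and fed WT livers 2 were, Fgf21, which was higher, and Fgfr3, which was lower (4.28% of all genes apart, 1.92% lower). With the scanner's processed signals, to which the scanner errors belong, the KO difference was 1.07, just past 2-fold, and the WT difference was 2.87. The KO over WT ratio of fasted livers minus that of fed livers was -1.84 for Fgf21 (scanner error 0.47, SD of repeated spots 0.12), at rank 15 from the lowest of 11290 genes. It was the only member past 2-fold in this difference, as 1.37% of all genes were (0.602% below 0), and it stayed between -1.91 and -1.37 over the 9 alternatives.

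**Figure D1:**
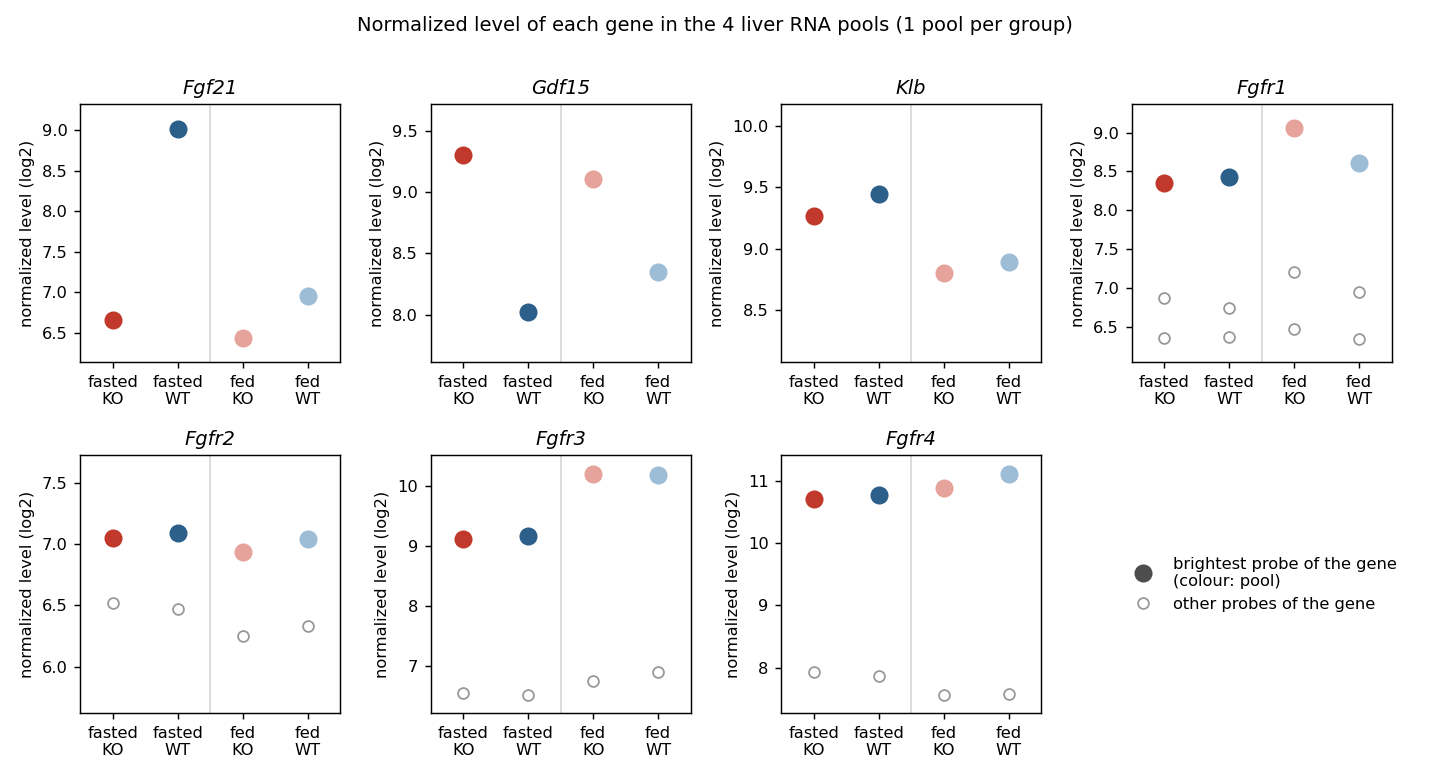
Normalized log2 level (y axis, one scale per gene) of the 7 genes in fasted KO, fasted WT, fed KO and fed WT liver, 1 pool each, with the brightest probe filled and other probes of the gene as open circles. Fgf21 stands at 9.02 in fasted WT liver and between 6.43 and 6.96 in the other 3 pools, and Gdf15 is above 9 in both KO pools.

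Fgf21 lies on mouse chromosome 7, and the bases before its start are shown because Fgf21 had the largest genotype difference of the 7 genes. The sequence covers 250 bases before the RefSeq start on the minus strand, at chr7:45615491-45615740 of GRCm38.p6. Capitals mark, in order, TGATGNAA (a C/EBP-ATF element, here on the opposite strand), TGACG (the core of the cAMP response element that CREB-type factors bind, also on the opposite strand), the E-box CACGTG and a TATAAA box.

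Fgf21: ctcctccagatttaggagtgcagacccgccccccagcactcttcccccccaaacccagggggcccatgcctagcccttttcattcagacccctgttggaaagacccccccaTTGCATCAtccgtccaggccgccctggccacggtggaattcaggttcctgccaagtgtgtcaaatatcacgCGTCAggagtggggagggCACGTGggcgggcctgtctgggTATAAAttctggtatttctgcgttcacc

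Both strands were searched, and the matches do not overlap. The matches lie 139 to 132, 68 to 64, 50 to 45 and 28 to 23 bases before the start. Over 32851 RefSeq promoters of the same length, 3.45% held TGATGNAA, 17.8% held TGACG, 6.02% held CACGTG and 12.4% held TATAAA. The nuclear receptor hexamer AGGTCA, bound by PPARα among others, was searched too and had no match in this window, where 14.0% of promoters had one. A match is a description of letters and not a site of binding.

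Genes next to Fgf21 on the chromosome are given to describe its surroundings. Of the 3 neighbours on each side, Plekha4, Bcat2 and Rasip1 were measured in all 4 pools. Their log2 ratios of KO over WT in fasted livers were 0.01 for Plekha4, 0.11 for Bcat2, which encodes the mitochondrial branched-chain aminotransferase, and 0.10 for Rasip1, which encodes an endothelial signalling protein. Hsd17b14 and Fut1 were measured in fasted livers only, at 0.00 and -0.36, and Izumo1, a sperm gene, was not measured. None of the 5 measured neighbours was 2-fold apart in fasted livers, where 0.791% of all measured genes were. None among 5 is near that share.

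Cell type markers beside the Fgf21 result were as follows. The summed log2 signal of the 8 hepatocyte markers was 19.43 in fasted KO and 19.31 in fasted WT liver. Pancreatic acinar cells also express Fgf21, and 4 of 8 acinar markers were above background in fasted KO and 3 of 8 in fasted WT liver, with summed log2 signals of 11.04 and 11.02 in those pools. Of 6 adipocyte markers 1 was above background in fasted KO and 2 in fasted WT liver (Cfd in fasted WT, Fabp4 in both), and Adipoq, Lep, Plin1 and Retn were not. Fabp4, a fatty acid binding protein also made by macrophages and endothelial cells, was higher in fasted KO liver (log2 1.35). Their part in the Fgf21 result was not tested.

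Gdf15 ran the other way and did so in both feeding states. Its log2 level was 9.30 in fasted KO and 8.02 in fasted WT liver, and 9.11 in fed KO and 8.35 in fed WT liver. Both KO pools were above both WT pools. With KO in Cy5 on both arrays, genotype and dye cannot be told apart in this agreement. KO over WT was 1.28 on the log2 scale in fasted livers (scanner error 0.24, SD of repeated spots 0.08) and 0.75 in fed livers (scanner error 0.22, SD of repeated spots 0.09). The fasted value was at rank 28 from the highest of 12262 genes and the fed value, a 1.69-fold difference, at rank 48 from the highest of 11377. The authors' deposited table had 1.43 for the fasted and 0.90 for the fed array. All 9 alternatives kept the fasted value past 2-fold, between 1.28 and 1.89, and the fed value above 0, between 0.75 and 1.55. As for Fgf21, the settings on filtering and averaging could not move this gene of 1 probe and 1 spot.

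Gdf15 differed little between fasted and fed livers of either genotype. Fasted over fed was 0.20 in KO liver (scanner error 0.20) and -0.33 in WT liver (scanner error 0.21). The difference between the genotypes, in which a dye effect shared by both arrays cancels, was 0.52 (scanner error 0.33). It was less than 2-fold under every alternative. The sign in WT liver turned to 0.22 without normalization between arrays, a setting that raised the median of all genes by 0.45. Of the 9 alternatives for the fed ratio, 1 was past 2-fold, the centring on the median of all gene spots at 1.55.

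RefSeq gives 2 starts for Gdf15, and the 250 bases before each are shown to set them beside Fgf21. Both are on the minus strand of GRCm38.p6, at chr8:70632457-70632706 and chr8:70632096-70632345. Capitals mark AGGTCA in the first window, 55 to 50 bases before that start, and CACGTG in the second, 83 to 78 bases before that start. Neither window held the C/EBP-ATF element, the cAMP response core or the TATAAA box.

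Gdf15, first start: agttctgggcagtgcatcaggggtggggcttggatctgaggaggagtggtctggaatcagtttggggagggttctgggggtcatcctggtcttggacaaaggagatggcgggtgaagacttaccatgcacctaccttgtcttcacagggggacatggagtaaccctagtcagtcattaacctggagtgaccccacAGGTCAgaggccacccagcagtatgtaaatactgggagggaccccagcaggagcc

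Gdf15, second start: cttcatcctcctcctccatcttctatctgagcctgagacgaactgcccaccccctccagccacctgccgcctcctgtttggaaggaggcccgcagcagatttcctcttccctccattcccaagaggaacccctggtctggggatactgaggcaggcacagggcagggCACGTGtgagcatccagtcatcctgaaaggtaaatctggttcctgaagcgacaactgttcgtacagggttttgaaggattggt

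**Figure D2:**
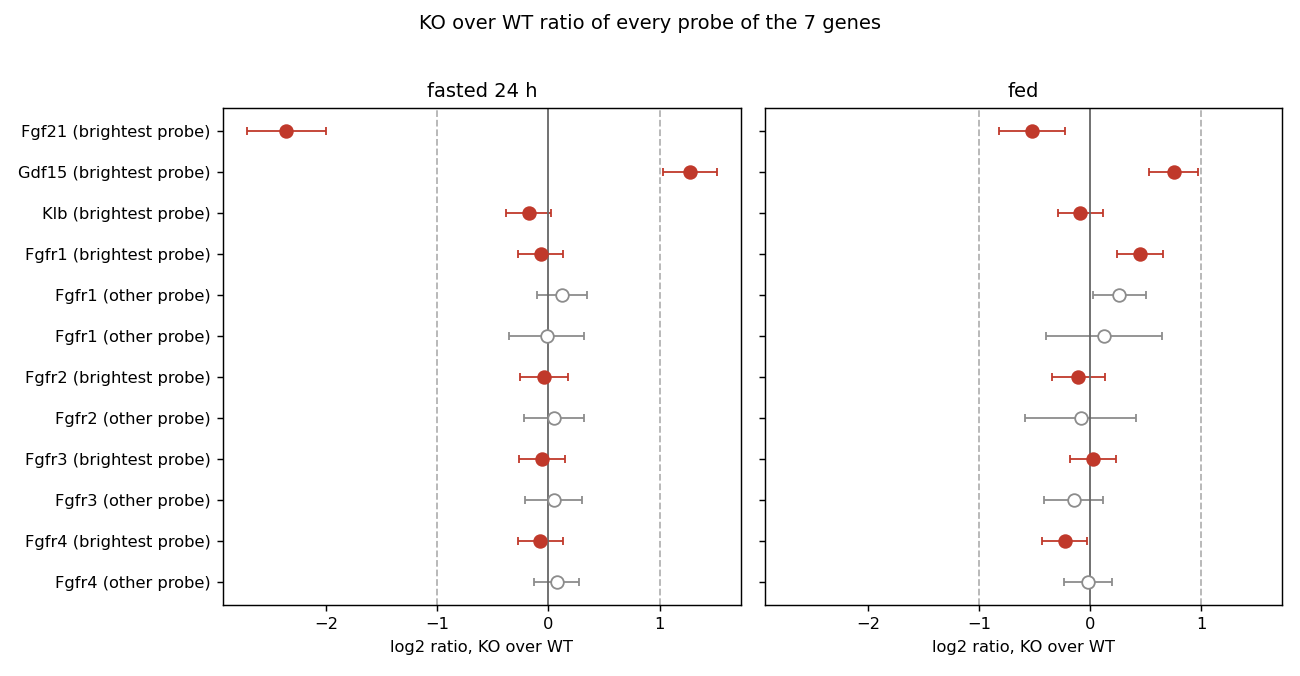
Log2 ratio of KO over WT (x axis) for all 12 probes of the 7 genes in fasted (left) and fed (right) liver, with bars of 1 scanner error and dashed lines at 2-fold. Fgf21 stands at -2.36 and Gdf15 at 1.28 in fasted liver, and every receptor and Klb probe lies inside the dashed lines on both arrays.

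Klb and the 4 receptors showed no 2-fold genotype difference in either state. Over these 5 genes the log2 ratio of KO over WT ran between -0.18 (Klb) and -0.04 (Fgfr2) in fasted livers, and between -0.23 (Fgfr4) and 0.45 (Fgfr1) in fed livers. Centring on the median of all gene spots turned these ratios positive, to between 0.31 and 0.68 in fasted livers, but it also raised the median of all genes by 0.56 in fasted and 0.76 in fed livers. Of these 5 genes only Fgfr1 was past 2-fold under any setting, at 1.26 in fed livers with that centring, which is less than 2-fold once the shift is taken off.

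Klb, the co-receptor that FGF21 and FGF15 both need, had a log2 level of 9.27 in fasted KO and 9.45 in fasted WT liver, and 8.80 in fed KO and 8.89 in fed WT liver. Both fasted pools were above both fed pools. Fasted over fed was 0.47 in KO and 0.56 in WT liver (scanner error 0.20 each), a 1.38-fold and a 1.47-fold difference. KO over WT was -0.18 in fasted and -0.09 in fed livers (scanner error 0.21 each). The scanner's own ratios, to which that error belongs, were -0.34 in fasted and -0.21 in fed livers. The difference of these ratios between the arrays was -0.09 (scanner error 0.29). The Klb probe was well above background in all 4 channels, and both genotypes showed a fasting difference above the scanner error.

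The window before the Klb start is shown because Klb, whose genotype ratio was near 0, holds the same cAMP response core as Fgf21. It lies on the plus strand at chr5:65348161-65348410 of GRCm38.p6, with TGACG in capitals 146 to 142 bases before the start and none of the other 4 motifs. The windows of Fgfr2, Fgfr3 and Fgfr4 held none of the 5 motifs.

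Klb: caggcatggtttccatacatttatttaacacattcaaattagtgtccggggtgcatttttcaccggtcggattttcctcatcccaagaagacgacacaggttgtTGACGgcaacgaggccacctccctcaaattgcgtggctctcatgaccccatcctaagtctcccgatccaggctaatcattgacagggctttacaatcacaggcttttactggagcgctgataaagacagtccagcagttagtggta

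Fgfr4, the receptor through which FGF15 acts on hepatocytes, had a log2 level of 10.70 in fasted KO and 10.77 in fasted WT liver, and 10.88 in fed KO and 11.11 in fed WT liver. The 4 pools lay within 0.41 of each other. KO over WT was -0.07 in fasted and -0.23 in fed livers (scanner error 0.20 each), and fasted over fed was -0.18 in KO and -0.33 in WT liver. The second, dimmer Fgfr4 probe gave 0.37 in KO and 0.28 in WT liver for fasted over fed, so the 2 probes differed in sign and no direction with fasting can be given. That probe gave 0.07 in fasted and -0.02 in fed livers for KO over WT.

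Fgfr3, a receptor best known for its role in bone growth, was the receptor with the largest fasting difference by its brightest probe. Its log2 level was 9.11 in fasted KO and 9.17 in fasted WT liver, and 10.20 in fed KO and 10.18 in fed WT liver. The fasted pools did not overlap the fed pools, and the genotypes nearly coincided in each state. Fasted over fed was -1.09 in KO liver (2.13-fold lower, rank 200 from the lowest of 11785 genes) and -1.01 in WT liver (2.01-fold lower, rank 212 from the lowest of 11441 genes), with a scanner error of 0.20 each. These are just inside the 2-fold rule, and the second probe, which was dimmer, gave -0.19 in KO and -0.38 in WT liver. The mean over both probes was -0.64 in KO and -0.69 in WT liver, under 2-fold. Over the alternatives, 7 of 9 kept the KO value and 5 of 9 the WT value past 2-fold. KO over WT was -0.06 in fasted and 0.02 in fed livers, and the difference of these ratios was -0.08 (scanner error 0.29).

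Fgfr1, the receptor through which FGF21 acts in adipose tissue, had a log2 level of 8.36 in fasted KO and 8.43 in fasted WT liver, and 9.06 in fed KO and 8.61 in fed WT liver. The fed KO pool was the highest of the 4. KO over WT was -0.07 in fasted livers and 0.45 in fed livers (scanner error 0.21 each), with the fed value at rank 287 from the highest of 11377 genes. In fed livers all 3 Fgfr1 probes were above 0, at 0.45, 0.26 and 0.12, although the last was not well above background in fed WT liver. Fasted over fed was -0.70 in KO and -0.19 in WT liver, and the difference of the KO over WT ratios was -0.52 (scanner error 0.29), with -0.14 from each of the other 2 probes. Those 2 probes gave -0.34 and -0.12 for fasted over fed in KO liver. Of 8 measured markers of the stellate cell and fibroblast list, 6 were below 0 and 2 above 0 for fasted over fed in each genotype, with medians of -0.39 in KO and -0.33 in WT liver. The collagen genes Col3a1, at -1.68 in KO and -1.67 in WT liver, and Col1a1, at -1.42 in KO and -1.31 in WT liver, were past 2-fold, and Rgs5, a pericyte marker, was at 0.68 in KO and 0.47 in WT liver. The summed log2 signal of that list, with 9 of 9 markers above background in the fasted pools and 8 of 9 in the fed pools, was 13.23 in fasted KO and 13.12 in fasted WT liver, and 13.21 in fed KO and 13.04 in fed WT liver. Their part in the Fgfr1 values was not tested.

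Fgfr2, a receptor of epithelial cells, varied least. Its log2 level was 7.05 in fasted KO and 7.09 in fasted WT liver, and 6.94 in fed KO and 7.04 in fed WT liver, all within 0.15. KO over WT was -0.04 in fasted and -0.11 in fed livers (scanner errors 0.21 and 0.24). A second probe for Fgfr2 was printed in 10 spots per array. It showed the technical spread after the processing used here, which draws dim ratios towards 0. The 10 ratios of KO over WT ran between -0.10 and 0.20 on the fasted array (SD 0.11), with 7 above 0. On the fed array they ran between -0.25 and 0.11 (SD 0.09), with 1 above 0. In the authors' deposited table the same spots spread more widely, between -0.35 and 0.70 fasted and between -0.86 and 0.31 fed. In fasted livers all 10 of its spots were well above background in each channel. In fed livers 6 were in the KO channel and 5 in the WT channel, with background-subtracted signals between 11.5 and 28 units for KO and between 2 and 12 units for WT.

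**Figure D3:**
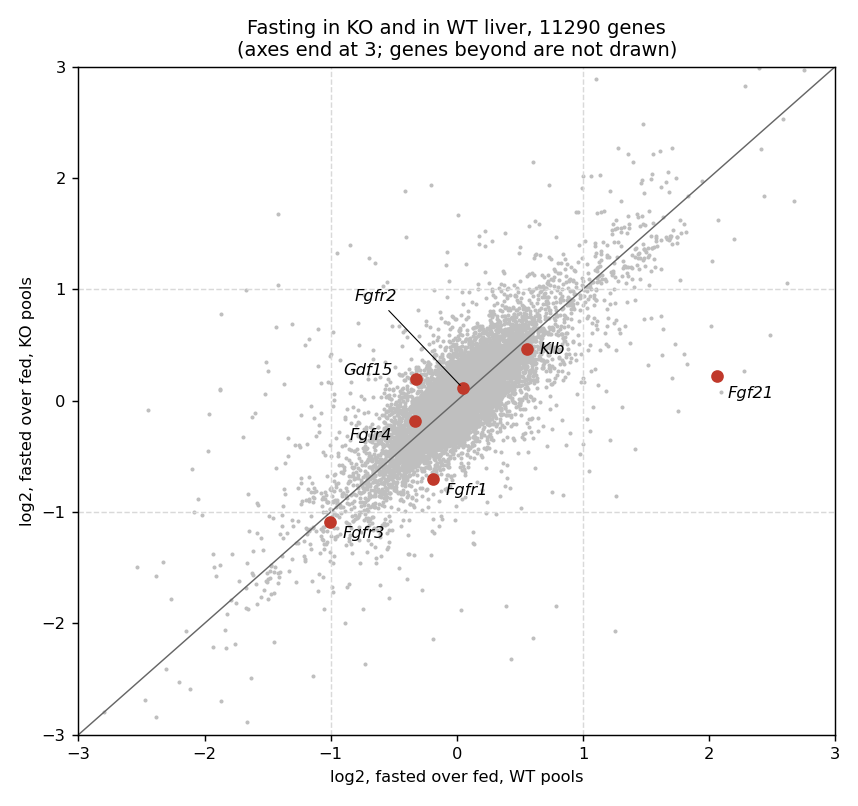
Log2 difference of fasted over fed in KO liver (y axis) against WT liver (x axis) for 11290 genes measured in all 4 pools (grey), the 7 genes in red, the diagonal in black and dashed lines at 2-fold. The axes end at 3 on the log2 scale, and Fgf21 lies at 0.22 in KO and 2.06 in WT, far from the diagonal, whereas Klb, Fgfr2, Fgfr3 and Fgfr4 lie near it.

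Other FGF ligand genes were mostly not above background. Of 21 listed ligand genes, 4 were measured in both fasted pools and 2 in both fed pools. None was 2-fold apart between genotypes, where 0.791% of all genes were in fasted and 0.554% in fed livers. None among so few is near those shares. Fgf23, a phosphate-regulating hormone made mainly in bone, was lower in fasted than in fed livers, at a log2 difference of -1.76 in KO and -1.55 in WT. It was the 1 ligand gene 2-fold lower of 3 measured in KO (2.1% of all genes) and of 2 in WT (1.92%). Fgf1, whose product binds all FGF receptors, had 0.83 in KO and 0.84 in WT liver for fasted over fed, and -0.07 in fasted and -0.05 in fed livers for KO over WT.

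Genes of receptor binding partners, which include heparan sulfate proteoglycans and galectins, held single large differences. In fasted livers 1 of 10 measured was 2-fold lower in KO, Gpc1, which encodes a glypican, at -2.77, where 0.432% of all genes were lower. In fed livers 1 of 11 was 2-fold lower, Sdc4, which encodes a syndecan, at -1.21, where 0.396% of all genes were lower. The fed Sdc4 value stayed past 2-fold under 5 of 7 alternatives and was -0.25 with centring on the median of all gene spots. Sdc4 was at -0.55 in fasted livers. The medians over the list were -0.24 in fasted and -0.11 in fed livers, beside 0.01 over all genes on each array. Lgals1, which encodes galectin-1, was lower in fasted than in fed livers in both genotypes, at -1.25 in KO and -1.06 in WT.

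The signal relay under the receptors, from the adaptor genes Frs2 and Grb2 to the kinase genes Map2k1 and Akt2, held no gene 2-fold apart. This was so for the 19 measured genes in all 5 comparisons, where between 0.554% and 4.68% of all measured genes were apart. None among 19 is near those shares. The median log2 ratio of KO over WT was -0.05 in fasted and 0.02 in fed livers, beside 0.01 over all genes on each array. Frs2 was at 0.29 in fasted and 0.27 in fed livers, and Map2k1 was at -0.17 in fasted and -0.11 in fed livers. Pik3r1, which encodes the regulatory subunit of PI3 kinase, had the largest fasting difference, at -0.85 in KO and -0.62 in WT liver. Its KO value passed 2-fold under 2 of 8 alternatives, down to -1.12.

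Among feedback and early target genes of the ERK pathway, Egr1, an immediate early transcription factor, was at -2.46 for KO over WT in fed livers. It was the only 1 of 9 measured genes past 2-fold there (0.554% of all genes), and none of 12 was in fasted livers (0.791%). Fos, another immediate early gene, was not measured above background in fed KO liver and so had no fed ratio, and its fasted over fed value in WT liver was -0.85. Fasted over fed was 1.40 in KO and -0.85 in WT liver for Egr1, and the difference of its KO over WT ratios was 2.25. Dusp6, which encodes a phosphatase of ERK, was at 0.57 in fasted and 0.21 in fed livers, and Spry1, an inhibitor of receptor signalling, was at 0.33 in fasted livers. All 9 genes measured in all 4 pools had a difference of the ratios above 0, with a median of 0.29, beside -0.01 over all genes. Under the alternatives the median of these genes stayed above 0, between 0.11 and 0.43. The Kupffer cell and macrophage markers moved with these genes: 8 of 8 were above 0 in the difference of the ratios (median 0.48), and 8 of 8 were below 0 for KO over WT in fed livers (median -0.37). Their part in the values of the ERK targets was not tested.

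Regulators of Fgf21 were all measured (21 of 21). In fasted livers 1 was 2-fold lower in KO (0.432% of all genes), the targeted gene Creb3l3 itself, at -2.07. Ppara, which encodes the nuclear receptor that drives Fgf21 in fasting, was at -0.74, Ppargc1a, which encodes a coactivator, was at -0.39, and Ddit3, which encodes CHOP of the integrated stress response, was at 0.79. In fed livers Ppard, a relative of Ppara, was the 1 regulator 2-fold lower in KO (0.396% of all genes), at -1.05. Ppard stayed past 2-fold under 5 of 7 alternatives and was at -0.21 with centring on the median of all gene spots. Creb3l3 was at -0.88 (0.31 with centring on the median of all gene spots) and Nr1d1, a clock repressor, was at 0.78. The difference of the ratios was -0.80 for Ppara and 0.77 for Ddit3. With fasting, 2 regulators were 2-fold lower in KO liver (2.1% of all genes), and 3 were 2-fold lower (1.92%) and 1, Creb3l3, 2-fold higher (2.36%) in WT liver. Mlxipl, which encodes the carbohydrate-responsive factor ChREBP, was at -1.56 in KO and -1.09 in WT liver, and Bhlhe40, a clock repressor, was at -1.57 in KO and -1.62 in WT liver. Centring on the median of all gene spots turned the fasted ratios of Ppara and Ppargc1a positive, together with most genes.

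Targets of PPARα, the factor that shares the control of Fgf21, were higher in fasted livers of both genotypes. Of 20 measured targets, 17 were at least 2-fold higher fasted than fed in KO liver (median 1.55) and 15 were in WT liver (median 1.64), where 2.59% and 2.36% of all genes were. Cyp4a14, a fatty acid hydroxylase of the ER, was at 9.69 in KO and 4.55 in WT liver, and Ehhadh, of peroxisomal fatty acid oxidation, was at 3.97 in KO. In fasted livers 2 of the 20 were at least 2-fold higher in KO (0.359% of all genes), Pdk4, which restrains glucose oxidation, at 1.56 and Cyp4a14 at 1.36, and none was 2-fold lower. In fed livers 3 were 2-fold lower in KO (0.396% of all genes), Cyp4a14 at -3.77, Vnn1 at -1.57 and Cyp4a10 at -1.39. Cyp4a10 is a gene with close paralogs that a probe may not tell apart. Angptl4, an inhibitor of lipoprotein lipase, was the 1 target 2-fold higher there (0.158% of all genes), at 1.84. The Fgf21 difference of -1.84 between the arrays stood beside a list median of 0.30. In that difference 4 targets were at least 2-fold above 0 (0.771% of all genes). The 1 target at least 2-fold below 0 (0.602%) was Angptl4, at -1.56.

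Targets of ATF4 and CHOP, the stress factors that also act on Fgf21 and Gdf15, held 2-fold genotype differences in both directions in fasted livers. Asns, which encodes asparagine synthetase, was at 3.30 in fasted and 2.19 in fed livers for KO over WT. It was the only 1 at least 2-fold higher in KO in each state (0.359% of all genes fasted and 0.158% fed). Of the 15 measured in fasted livers, Atf5 at -1.27 and Chac1 at -1.06 were 2-fold lower in KO (0.432% of all genes), and the median was -0.06. Atf5 stayed past 2-fold under 5 of 7 alternatives and Chac1 under 6 of 7. Of the 16 measured in fed livers none was 2-fold lower (0.396% of all genes), and the median was 0.16. With fasting, 1 of 15 was 2-fold lower in WT liver (1.92% of all genes), Asns at -1.24. In KO liver 2 of 16 were 2-fold lower (2.1%), Nupr1 at -1.25 and Atf5 at -1.02.

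Other hormones made by the liver were set beside Fgf21 and Gdf15. Of 26 measured, Inhbe, which encodes the inhibin βE chain, was the only one 2-fold apart between fasted KO and fasted WT livers, at -1.12. Of all genes 0.791% were apart there. Inhbe stayed past 2-fold under 5 of 7 alternatives and was at -0.33 with centring on the median of all gene spots. Lcn2, which encodes lipocalin-2, was at 0.81 and Inhbb at 0.76. In fed livers Angptl4 was the only one (0.554% of all genes), and Igfbp2 was at -0.94. Angptl8, an insulin-driven partner of the angiopoietin-like proteins, was lower in fasted than in fed livers, at -3.23 in KO and -3.33 in WT. With fasting, 4 of 26 were at least 2-fold higher and 2 at least 2-fold lower in KO liver, and 4 were higher and 4 lower in WT liver, where 2.59% of all genes were higher and 2.1% lower in KO and 2.36% higher and 1.92% lower in WT liver. Igfbp1, a binding protein of IGF-1 that rises in fasting, was at 2.02 in WT liver.

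The bile acid genes under Klb and Fgfr4 held 2-fold genotype differences in fed livers. Cyp7a1, which catalyses the first step of bile acid synthesis and is repressed by FGF15, was at -0.71 in fasted and -1.08 in fed livers for KO over WT. Its fed value stayed past 2-fold under 5 of 7 alternatives and was -0.28 with centring on the median of all gene spots. Cyp7b1, of the alternative pathway, was at 1.10 in fed livers. None of 10 measured genes was 2-fold apart in fasted livers (0.791% of all genes), and those 2 of 11 were in fed livers (0.554%). With fasting, Cyp8b1, which sets the share of cholic acid, was higher, at 1.83 in KO and 2.44 in WT liver, and Abcb11, the bile salt export pump, was lower, at -1.28 in KO and -1.26 in WT liver.

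Genes with a profile most like that of Fgf21 were sought among 11290 genes measured in all 4 pools, as the smallest Euclidean distance between log2 levels centred on each gene's mean. Distances over 4 pools describe likeness in these pools only. The nearest was Cidec, a lipid droplet protein, at a distance of 0.43. Its log2 level was 6.80 in fasted KO and 9.37 in fasted WT liver, and 6.21 in fed KO and 6.89 in fed WT liver. Gm13315, a gene without an assigned role (0.67), G0s2, which encodes an inhibitor of adipose triglyceride lipase (0.74), Lamb3, a laminin chain (0.75), and Creb3l3 itself (0.78) followed. For fasted livers their KO over WT ratios were -2.56 for Cidec, -1.51 for Gm13315, -1.73 for G0s2, -1.46 for Lamb3 and -2.07 for Creb3l3, and for fed livers they ran between -0.88 and 0.28. Of the RefSeq windows searched for these genes, 1 window each of G0s2 and Creb3l3 held TGACG on either strand, that of Creb3l3 also held AGGTCA, and those of Cidec and Lamb3 held none of the 5 motifs.

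Nearest to Gdf15 were Meg3, a maternally expressed non-coding RNA (0.22), Lrtm1 (0.41), Arrdc3, an arrestin domain gene (0.41), Hspa5, which encodes the ER chaperone BiP (0.42), and Gna14, a G protein subunit (0.42). For KO over WT Meg3 was at 1.07 in fasted and 0.78 in fed livers, and Hspa5 was at 0.75 in fasted and 0.67 in fed livers.

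**Figure D4:**
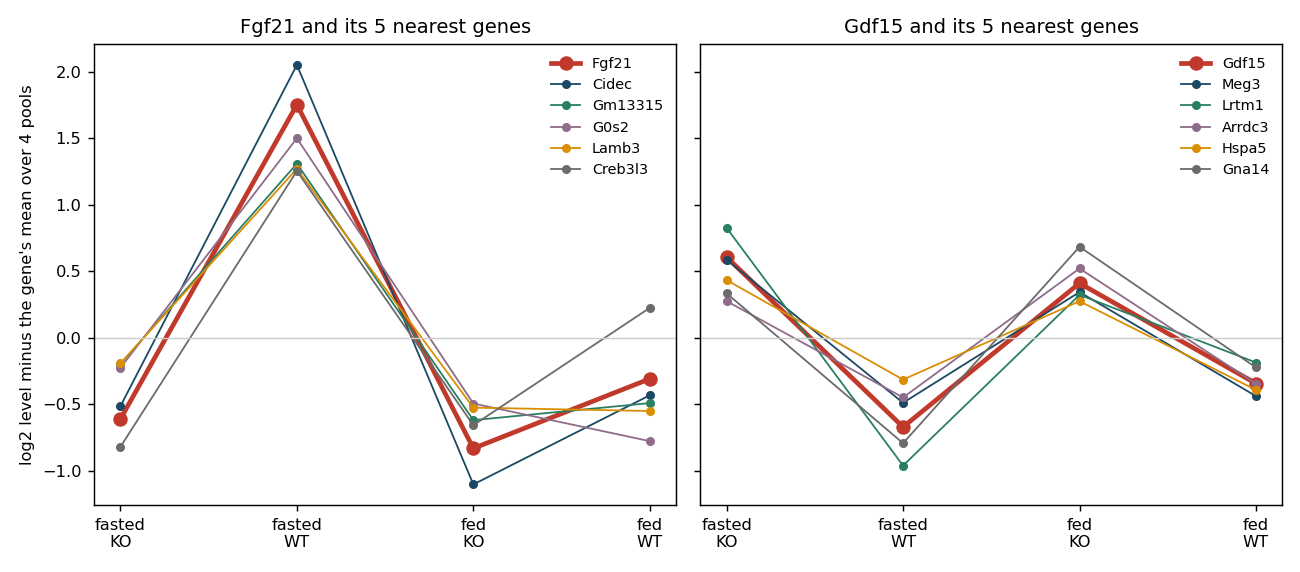
Log2 level minus the gene's mean over the 4 pools (y axis) for Fgf21 (left) and Gdf15 (right) with the 5 genes nearest to each, 1 pool per point. By the choice on likeness, the nearest genes share the shape of the gene they were matched to, with Fgf21 at 1.75 and Cidec at 2.05 in fasted WT liver.

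**Figure D5:**
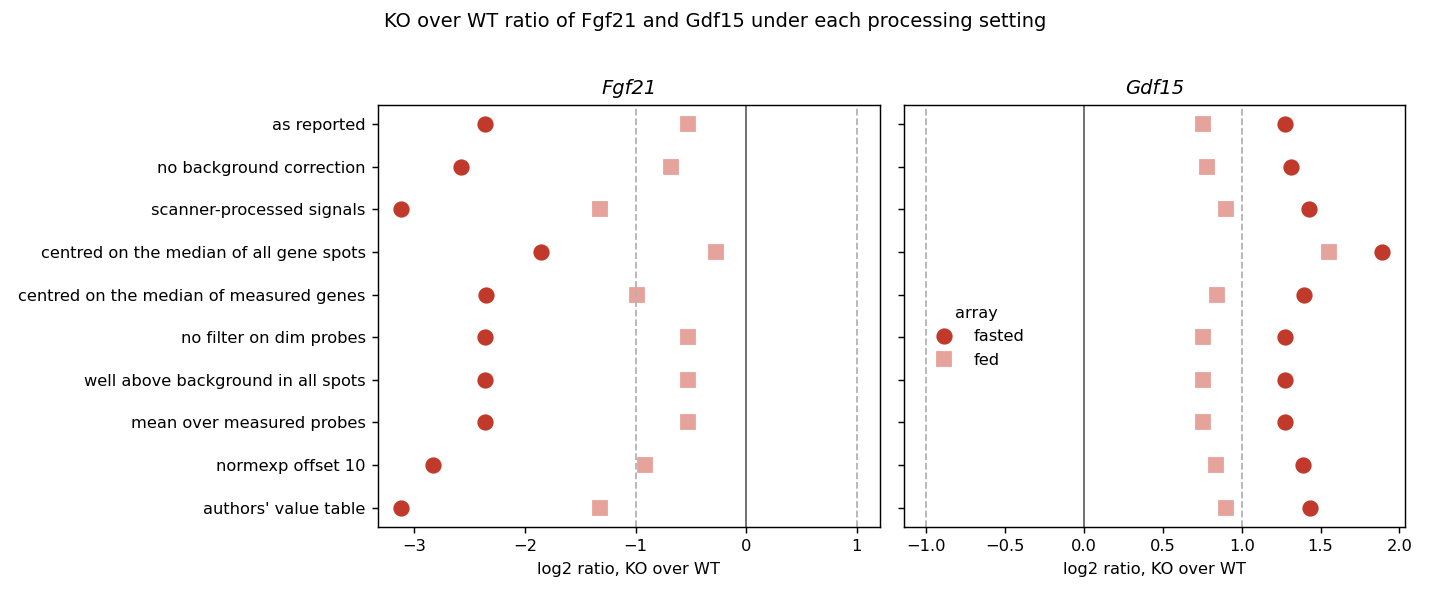
Log2 ratio of KO over WT (x axis) for Fgf21 (left) and Gdf15 (right) under the reported processing and 9 alternatives, fasted as circles and fed as squares, with dashed lines at 2-fold. Fasted Fgf21 runs between -3.12 and -1.85, always past 2-fold, and fed Fgf21 crosses the line at -1.32 with the scanner's processed signals and in the authors' table, which hold the same ratios.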

How the data were processed

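Total liver RNA was pooled per group and labelled with Cy5 (KO) and Cy3 (WT), per the labels. Scans were read by Agilent Feature Extraction 10.10.1.1 with an mm9 grid, per the file headers. Deposited spot and background intensity values are medians over pixels without normalization. Deposited processed intensity values were background-subtracted, detrended and dye-normalized, per the file headers. Each deposited log10 ratio and its error come from the scanner software, Cy5 over Cy3. The authors' value table holds log2 ratios within 0.005 of these. Flags for background, saturation and outliers are the scanner's.

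Median signals were corrected with normexp (offset 50), loess and Aquantile in limma 3.58.1 (R 4.3.3), checked on simulated data. That check covered only probes brighter than the Fgf21 spot was in fed WT liver. Control and outlier spots were left out, spots averaged per probe and the brightest probe taken per gene. The offset draws dim ratios towards 0. A gene was measured when at least 50% of its spots were well above background in each channel compared. The number of arrays limits the precision. RefSeq accessions were matched to GRCm38.p6, which named 26762 probes, and promoters, from RefSeq GRCm38.p6, matched 6 of 7 members.

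The 7 members and the 9 pathway and 8 marker lists were chosen with earlier results of these data known. Named are all members, the 4 largest log2 values per list and comparison, the 5 nearest profiles and 3 neighbours each side. List medians under the alternatives were added after seeing the data. The values of 1 gene of the receptor signal relay list are not reported here.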

Additional observations from a re-analysis of the deposited data

Results flagged for a closer look

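With 1 pool per group a member was listed here when its effect had opposite signs in the paired groups and both were larger than the SD of repeated spots. Other named genes were listed when the signs were opposite, each effect was above 0.2 and they were at least 2-fold apart. None of these differences was tested. Fasted over fed in KO minus WT was 0.52 for Gdf15 (0.20 in KO, -0.33 in WT), 2.25 for Egr1 (1.40, -0.85), -2.75 for Gpc1 (-2.32, 0.43), -1.33 for Atf5 (-1.02, 0.31), -1.10 for Chac1 (-0.70, 0.40), -1.01 for Inhbe (-0.25, 0.75) and 1.28 for Lrtm1 (0.50, -0.77). KO over WT in fasted minus fed livers was 5.13 for Cyp4a14 (1.36 fasted, -3.77 fed), 2.35 for Cyp4a10 (0.96, -1.39), 2.35 for Vnn1 (0.78, -1.57), 1.49 for Lcn2 (0.81, -0.68), 1.65 for Fabp4 (1.35, -0.31), 1.19 for Marco, a scavenger receptor of macrophages (0.28, -0.91), -2.01 for G0s2 (-1.73, 0.28) and -1.41 for Cyp7b1 (-0.31, 1.10). Fgf21 is not among them, since its fasting values had the same sign in both genotypes.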

How the results depend on the processing

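With 1 pool per group no replicate could be left out. No paired analysis was possible because each group holds 1 pool. Over the settings tried, Fgf21 kept its sign in all 5 comparisons, and Gdf15 kept its sign in KO over WT. The settings on filtering and averaging could move neither gene. For Fgf21 the scanner's processed signals gave -3.12 fasted and -1.32 fed for KO over WT, as in the authors' table, and 1.07 in KO and 2.87 in WT for fasted over fed. An offset of 10 gave -2.83 fasted, -0.92 fed, 0.55 in KO and 2.46 in WT. Centring on all gene spots gave -1.85 fasted, and centring on measured genes gave -0.98 fed, 1.82 for fasting in WT and -1.37 for the difference. Without normalization between arrays, fasting gave 0.56 in KO and 2.40 in WT. Members past 2-fold numbered 1 (processed signals) and 2 (all-spot centring) in fed livers, 2 (processed signals) and 0 (mean over probes) for fasting in KO, and 1 with either centring or the mean over probes for fasting in WT. Genes past 2-fold with processed signals numbered 193 fasted, 174 fed, 1068 for fasting in KO, 885 in WT and 341 for the difference, beside 97, 63, 552, 490 and 155 as reported. All-spot centring gave 956 fasted (940 higher, 16 lower) and 3111 fed (3102, 9), measured-gene centring 145 fasted (106, 39) and 154 fed (113, 41), where the reported split was 44 and 53 fasted and 18 and 45 fed. All-spot centring also gave 269 higher and 354 lower for fasting in KO, 291 and 152 in WT, and 66 and 124 for the difference, reported as 87 and 68. An offset of 10 gave 97 fed (31 higher, 66 lower). Without normalization between arrays fasting gave 1244 in KO (1164, 80) and 1151 in WT (1080, 71), beside 305 and 247 in KO and 270 and 220 in WT. All-spot centring and the lack of normalization between arrays moved the median of all genes by 0.56 fasted and 0.76 fed, and by 0.43 in KO and 0.45 in WT. The cause of the other moves was not tested. The dim Fgf21 spot in 3 pools limits its fed and KO values.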
